A study of Mus musculus with 4 samples.

Results

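The transcripts described here are those of 6 translation initiation factor genes, Eif4e, Eif5, Eif5a, Eif4g2, Eif4a1 and Eif4a2, that carried reproducible binding sites of the RNA helicase DDX5 in mouse Th17 cells. They were taken by gene name from the authors' list of 900 peaks, which names 459 genes, and together they hold 12 of those peaks. The genes were chosen by the presence of a peak, with the log2 enrichment values in view, so both are descriptions here and were not tested. Of the 12 peaks, 9 lie in the host RNA of 5 genes and 3 lie in small nucleolar RNAs (snoRNAs) that sit inside introns of 3 genes.

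Th17 cells are helper T cells that make interleukin-17. The cells came from female C57BL/6 mice of wild type genotype, and naive CD4 T cells had been cultured for 72 h with IL6, TGFb and the antibodies anti-CD3 and anti-CD28. Enhanced crosslinking and immunoprecipitation (eCLIP) crosslinks proteins to RNA with ultraviolet light, pulls down 1 protein and sequences the RNA fragments that stay attached. There were 4 libraries, 2 anti-DDX5 immunoprecipitates and 2 inputs without antibody, and the groups share strain, genotype and culture. The labels give an age of 8 weeks, whereas the series text gives 8 to 10 weeks and 2 mice, without saying whether a replicate was 1 mouse. No unrelated antibody and no cells without DDX5 were among these libraries. Every peak has a single enrichment value for both replicates together, which leaves their spread unknown, as is the depth of the libraries. Of the marker genes, 2 of 8 Th17 genes (Rora and Ahr), 1 of 6 T cell genes (Bcl11b) and 0 of 8 genes of other blood cells had a peak. A peak list shows bound RNA and not expression, so a missing peak says nothing about cell identity.

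Translation initiation brings the small ribosomal subunit to the cap of an mRNA and then to a start codon. The cap-binding protein eIF4E, the DEAD-box helicase eIF4A (made by Eif4a1 or Eif4a2) and an eIF4G scaffold form the complex that loads the ribosome, eIF5 stimulates GTP hydrolysis by eIF2 at the start codon, and eIF5A helps the ribosome through difficult peptide bonds. T cells raise protein synthesis strongly when they are activated. DDX5 belongs to the same DEAD-box family as eIF4A, and acts mainly in the nucleus, where introns and snoRNAs are found.

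Sequence could be read for the Eif5a peaks, since both fall inside 300-nt windows around annotated RefSeq starts (GRCm38.p6, the same assembly as mm10), and they are shown because they let the bound RNA itself be seen. Both are read 5′ to 3′ on the minus strand, and capitals mark runs of at least 3 G. From the upstream peak, 7 nt were left out that overlap an annotated 5′ UTR or the first bases of a RefSeq transcript, so that the first line spans chr11:69920948-69921023. The second line is the whole downstream peak, chr11:69920701-69920779.
Eif5a upstream peak: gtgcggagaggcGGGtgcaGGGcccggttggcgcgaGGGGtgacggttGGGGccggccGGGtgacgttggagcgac
Eif5a downstream peak: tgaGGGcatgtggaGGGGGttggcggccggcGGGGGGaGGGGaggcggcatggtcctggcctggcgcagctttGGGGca

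Both Eif5a stretches were rich in G on the RNA strand. G made up 55.3% of the 76 nt of the upstream stretch and 55.7% of the 79 nt of the downstream peak, and each held 5 runs of at least 3 G. In pieces of the same length cut end to end from all 32851 promoter windows, the median share of G was 25% and 25.3%, and 99.1% and 99.3% of pieces were lower. The longest run was 4 nt upstream and 6 nt downstream. A stricter arrangement, 4 or more runs of at least 3 G with at most 7 nt between neighbours, was found in neither stretch. On the RNA strand it occurred in 2.24% and 2.39% of the pieces of these lengths, and as runs of C, which is the other strand, in 2.03% and 2.17%. Other peaks were also rich in G, and the comparison was not tested. The other 27 peaks of the list that lie whole inside such a window, in 22 genes, had a median of 43.9% G (range 28.3% to 61.1%). Among the 14 of them at least 60 nt wide, the median was 52.4%. These windows reach only 50 nt past a start, so they show peaks at starts and not the list as a whole.

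Promoter windows matched 5 of the 6 genes, with 11 windows in all. The GGG arrangement was present on one strand or the other in 3 of the 11, namely an upstream Eif4e window and 2 overlapping Eif5a windows, beside 16.9% of all windows. TATAAA, searched on both strands, was in 0 of the 11 beside 13.6% of all windows. CTTTCC, also searched on both strands, was in 3 of the 11 beside 26.6%. The 3 were 2 overlapping Eif5a windows and the Eif4a2 window.

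Eif4e, whose protein binds the mRNA cap, had the highest peak of the 6 genes. Its single peak spans chr3:138527608-138527696 on the plus strand (mm10, 89 nt), with a log2 enrichment of immunoprecipitate over input of 6.76, or 109-fold. The authors' −log10 p for it was 16.5. It ranked 38 among the 900 peaks, and by highest peak Eif4e ranked 23 of 459 genes. All 5 annotated transcripts over the peak have it in an intron. It begins 293 nt after the 5′ splice site of a 19006-nt intron, and 18624 nt remain to the intron's end. The authors classed it as close to a splice site. From the start of the longest transcript its midpoint is 1473 nt away. The midpoint is 356 nt from the nearest annotated start of a transcript over the peak. The peak thus lies near the front edge of a long intron and outside every exon of these transcripts.

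Eif5, whose protein acts on eIF2 at the start codon, had 1 peak at chr12:111538807-111538901 on the plus strand (95 nt). Its log2 enrichment was 6.17 (72.1-fold), its −log10 p was 11.5, and 87.8% of all peaks were lower. The authors classed it as 5′ UTR, but the annotation under it is divided. In the longer of the 2 transcripts the whole peak is intronic, 258 nt after the 5′ splice site of an 859-nt intron. The shorter transcript starts inside the peak, so that 49 nt fall in its 5′ UTR and 46 nt lie before its start. The peak therefore runs across an annotated start.

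Eif5a, named as an initiation factor but best known for its hypusine-bearing product in elongation, had 2 peaks on the minus strand of chromosome 11. The upstream peak (69920944 to 69921026, 83 nt) had a log2 enrichment of 5.85 (57.6-fold) and a −log10 p of 11.5. The downstream peak (69920701 to 69920779, 79 nt) had 5.79 (55.2-fold) and a −log10 p of 18.8. The peaks lie 164 nt apart and are of nearly equal height. The authors classed the upstream peak as 5′ UTR, although only 3 nt of it touch one, in 2 of 8 transcripts. In the other transcripts over it the peak is wholly intronic, as the downstream peak is in all 11 transcripts over it. Transcripts with 7 different annotated starts run over the downstream peak and with 5 over the upstream one. Measured from the longest transcript, the midpoints lie 973 and 1218 nt from the start. Among these transcripts over each peak, the nearest starts are 79 and 179 nt away. RefSeq also has a start at 69920947, inside the upstream peak, and one at 69920630, downstream of both peaks.

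Eif4g2 encodes a relative of the eIF4G scaffold that lacks the eIF4E-binding part. Its 2 host RNA peaks share 1 intron of 1151 nt, which begins 246 nt after the start of the longest transcript. The upstream peak, chr7:111082472-111082538 (67 nt, minus strand), had a log2 enrichment of 5.49 (44.9-fold) and the lowest −log10 p of the 12 peaks, 7.04. The downstream peak, chr7:111082229-111082316 (88 nt), had 5.70 (52.1-fold) and a −log10 p of 11.1. The gap between them is 155 nt. They lie 246 and 468 nt after the 5′ splice site. The authors put the downstream one in the deep class, and 595 nt remain from it to the end of the intron.

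Eif4a1, which encodes the main eIF4A helicase, had 3 host RNA peaks, the most of the 6 genes. All 3 lie on the minus strand of chromosome 11 in a 1302-nt intron that begins 39 nt after the start of the longest transcript. The most upstream peak (69672038 to 69672145, 108 nt) had a log2 enrichment of 5.94 (61.5-fold) and the highest −log10 p of the host RNA peaks, 23.6. The next (69671383 to 69671428, 46 nt) had 6.00 (64.0-fold) with a −log10 p of 9.81, and the last (69671290 to 69671378, 89 nt) 5.74 (53.3-fold) with 20.2. The last pair is 4 nt apart and counts as 1 site when peaks up to 50 nt apart are joined, while 609 nt separate it from the upstream peak. The pair also lies in an exon of a noncoding transcript with a retained intron, which starts 22 nt before the pair. It is also near the 3′ end of the intron, with 406 and 313 nt left.

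**Figure D1:**
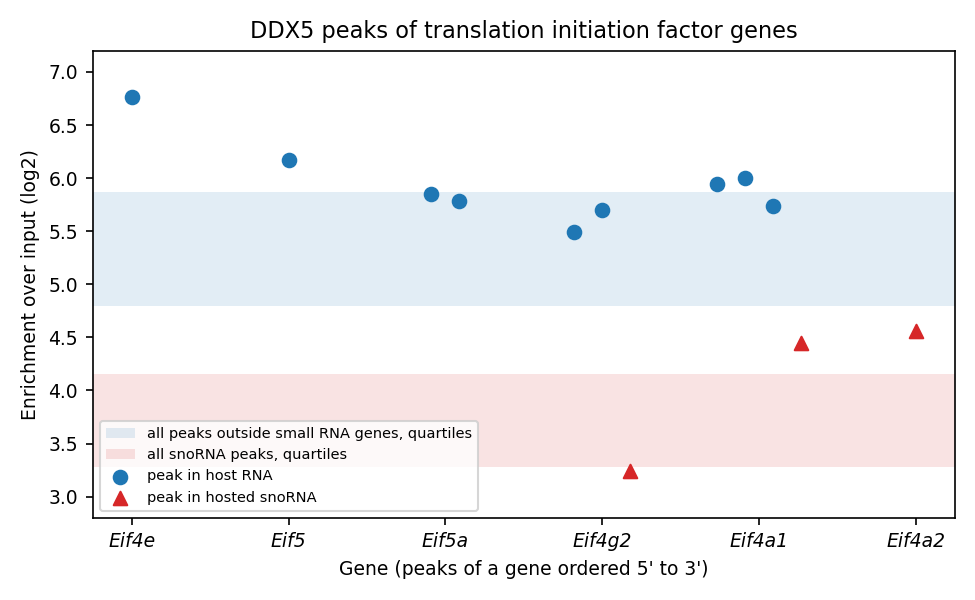
The vertical axis is log2 enrichment over input and each symbol is 1 peak, with circles for host RNA and triangles for hosted snoRNAs; shaded bands span the quartiles of all 820 peaks outside small RNA genes and of all 47 snoRNA peaks. The 9 host RNA peaks sit between 5.49 and 6.76 and the 3 snoRNA peaks between 3.24 and 4.56.

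Across the 9 host RNA peaks the log2 enrichment had a median of 5.85. The median over all 722 peaks that lie outside small RNA genes in protein-coding transcripts was 5.43, with quartiles of 4.89 and 5.90. The lowest of the 9, in Eif4g2, was just above that median, and 4 of the 9 were above the upper quartile, in Eif4e, Eif5 and Eif4a1. The 9 peaks were 46 to 108 nt wide (median 88 nt), against 71 nt over the 722. Nothing is read from this difference in height, because the genes were picked with the heights known. The order by height was not the order by the authors' −log10 p. The highest peak, in Eif4e, had 16.5 against 23.6 for the Eif4a1 peak at 5.94, and no peak of the 6 genes reached the ceiling of 400 in the list.

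All 9 host RNA peaks lie in an intron of the longest transcript, beside 76.5% of the 722 peaks. In 8 of the 9, that intron begins within 500 nt of the transcript start, and the exception is Eif4e, at 1136 nt. Of the 552 intronic peaks of the list, 65.4% lie in such an intron. The 9 were nearer to the 5′ than to the 3′ splice site in 7 cases (77.8%), beside 76.4% of the 552, and the 2 nearer to the 3′ end are the Eif4a1 pair. The introns that hold these peaks were 859 to 2343 nt long in all of the 5 genes but Eif4e, with 19006 nt. The median intron length was 1302 nt over the 9 peaks and 23380 nt over the 552. The median distance from the 5′ splice site was 468 nt for the 9 and 664 nt for the 552.

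Of the 9 host RNA peaks, 7 have their midpoint less than 1 kb from the longest transcript's first base, where the share over the 722 peaks was 52.9%. The 2 farther away are the Eif4e peak and the downstream Eif5a peak. By median the 9 were not nearer to that start, at 912 nt beside 852.5 nt for the 722. The median position along the longest transcript was 8.71% of its length for the 9 and 3.17% for the 722. These differences were not tested. The transcript chosen matters for the count within 1 kb. From the nearest annotated start of a transcript over the peak all 9 are within 1 kb, as are 70.2% of the 722. From the start of the RefSeq gene 5 of the 9 are, because that start lies upstream and puts the Eif4a1 pair past 1 kb. No host RNA peak of these genes was in a coding exon or a 3′ UTR by the authors' classes.

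**Figure D2:**
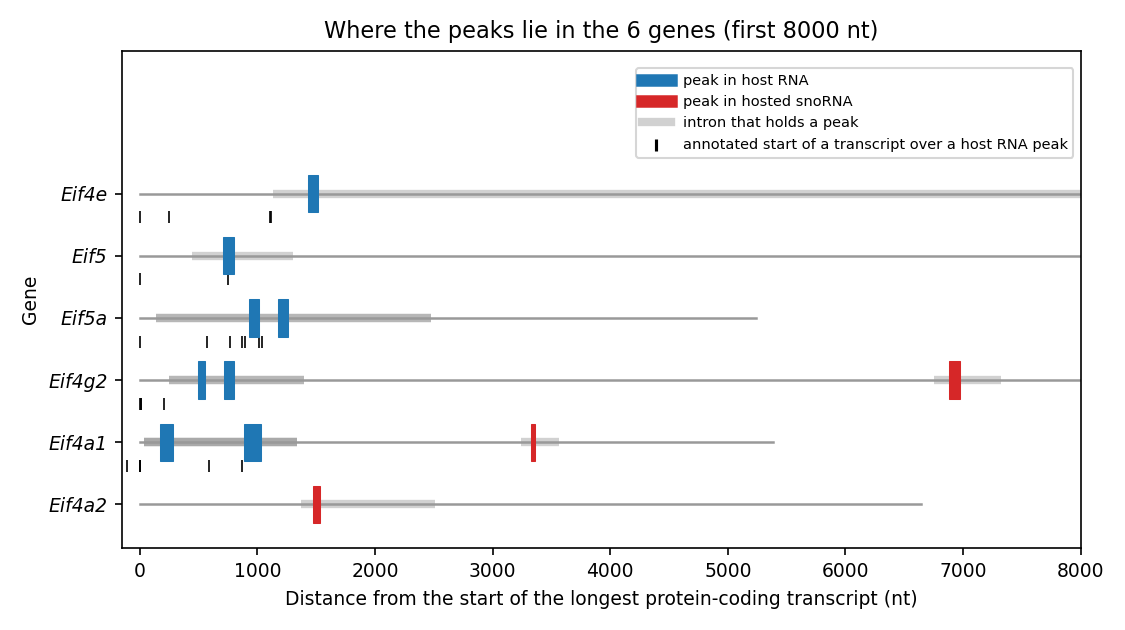
Each row is 1 gene and the horizontal axis is the distance in nt from the start of its longest protein-coding transcript, shown for the first 8000 nt; blue boxes are host RNA peaks, red boxes snoRNA peaks, thick grey lines the introns that hold them and ticks the annotated starts of transcripts over a host RNA peak. Host RNA peaks lie between 226 and 1473 nt and snoRNA peaks between 1504 and 6923 nt.

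**Figure D3:**
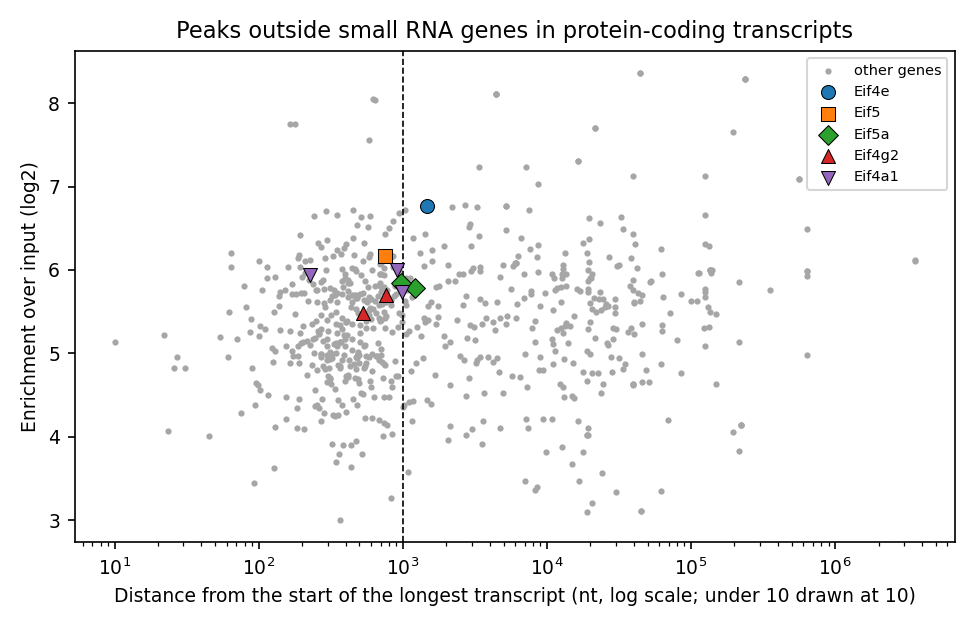
Each point is 1 of the 722 peaks that lie outside small RNA genes in protein-coding transcripts. It is placed by its distance from the start of the longest transcript (nt, log axis) and its log2 enrichment over input. Peaks of the initiation factor genes are in colour and a dashed line marks 1000 nt. The coloured points sit around the line, at log2 values of 5.49 and more.

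The remaining 3 peaks lie in snoRNAs, small guide RNAs that direct chemical modification of ribosomal and spliceosomal RNA and are cut out of introns. Eif4a2, which encodes the second eIF4A helicase, had no host RNA peak. Its only peak, chr16:23108953-23109013 on the plus strand, covers bases 1 to 61 of the 69-nt Snord2, and had a log2 enrichment of 4.56 (23.6-fold). It had the highest −log10 p of the 12 peaks, 30.7. In Eif4a1 a 37-nt peak, chr11:69668956-69668992, covers bases 4 to 40 of the 144-nt snoRNA Gm25835, at 4.44 (21.7-fold). In Eif4g2 a 93-nt peak, chr7:111076061-111076153, covers bases 75 to 167 of the 168-nt snoRNA Gm23262, at 3.24 (9.44-fold), the lowest value of the 12. Thus the covered part was nearly the whole of Snord2, the 5′ end of Gm25835 and the 3′ part of Gm23262.

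The 3 snoRNA peaks were all lower than the 9 host RNA peaks, and the 2 ranges do not overlap. The list as a whole is ordered in the same way by median only. Its median log2 enrichment was 3.69 for the 47 snoRNA peaks and 5.39 for the 820 peaks outside small RNA genes. The ranges of these 2 sets overlap widely, at 3.02 to 8.37 and 3.003 to 9.45. Nothing is read from the gap in the 6 genes, because they were picked with the heights known. As a fold over input, the value also depends on how much of the RNA is in the input, which was not available. Among the 37 snoRNA peaks inside a host intron, Snord2 ranked 5, Gm25835 ranked 7 and Gm23262 ranked 32, beside a median of 3.78. Not every snoRNA of these genes carried a peak. RefSeq places 10 snoRNA genes in 4 of the 6 genes, and 3 of the 10 had one. Over all 1340 RefSeq snoRNA genes, 36 were overlapped by a peak (2.69%, strand not compared). Nothing is read from the 3 of 10, because Eif4a2 entered the set through its Snord2 peak alone and the other genes were also chosen by their peaks. The 7 without a peak were Snora28 in Eif5, 2 of 3 in Eif4a1 and 4 of 5 in Eif4a2, Snora81 among these. Eif4e and Eif5a hold no RefSeq snoRNA gene, and all of their peaks are host RNA peaks.

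Eif4a1 and Eif4g2 have both kinds of peak. In Eif4a1 the snoRNA peak was 1.29 below the lowest and 1.56 below the highest host RNA peak on the log2 scale. In Eif4g2 these differences were 2.25 and 2.47. The paralogs Eif4a1 and Eif4a2 differ in the list, with 3 host RNA peaks in Eif4a1 and 0 in Eif4a2. Expression and depth were not available for either gene, and the difference was not tested.

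The wider machinery of translation was described with a list of 70 genes of initiation, elongation and release, which includes the 6 genes. A peak was found in 11 of the 70 (15.7%), where 1.81% of all 21900 protein-coding genes had one. Outside snoRNAs and other small RNA genes, 10 of the 70 had a peak, beside 1.69% of all genes. The 6 genes were chosen for having peaks, so the count that does not contain them is 5 of 64 (7.81%). Expression of these genes was not available, so binding and abundance of their transcripts cannot be told apart.

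By role, the cap complex and its regulators had peaks in 7 of 21 genes, of which 3 of 17 are outside the 6. Eif4g3, another eIF4G scaffold, had 3 abutting peaks, at log2 values of 4.47 in a coding exon and 4.99 and 4.14 in the intron that follows. Pdcd4, whose protein inhibits eIF4A, had 1 peak in the 5′ UTR class at 5.03. Pabpc1, which encodes the poly(A)-binding protein, had 2 peaks in the 5′ UTR class at 3.63 and 3.003. Start site selection and the eIF2 ternary complex had peaks in 2 of 26 genes, which were Eif5 and, listed with this group, Eif5a, so 0 of the other 24. None of the 13 genes of eIF3 subunits had one. Over all protein-coding genes the share was 1.81%, so nothing is read from counts of 0 in groups this small. Elongation and release had 2 of 10. Eef1a1, whose protein delivers tRNA, had a peak at 5.30 in an intron and one at 3.40 in a coding exon. Eef2, the translocation factor, had 3 peaks in coding exons, at 4.39, 4.10 and 4.11. The highest peaks of these 5 genes ranged from 3.63 to 5.30, and the 4.56 of Eif4a2, which has no host RNA peak, lies within that range.

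**Figure D4:**
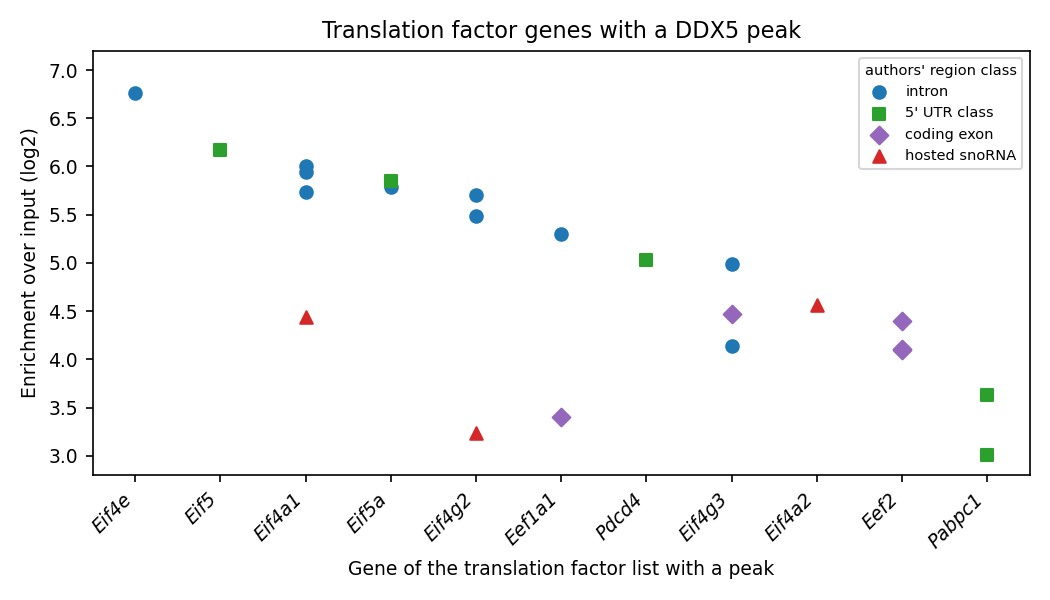
Each symbol is 1 peak of the 11 listed genes with a peak, placed by its log2 enrichment over input, with the shape and colour giving the authors' region class or a hosted snoRNA; genes are ordered by their highest peak. By highest peak, Eif4e stands first at 6.76 and Pabpc1 last at 3.63. The lowest symbol is the other Pabpc1 peak, at 3.003. Coding exon peaks occur only in Eif4g3, Eef1a1 and Eef2.

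Genes with the closest pattern were found by the number of host RNA peaks within 1 kb of the start and then by the nearest highest log2 enrichment over input, among all genes of the list. For Eif4g2, with 2 such peaks and a highest value of 5.70, the closest of 46 genes was Sema3c, a semaphorin gene, at 5.69. The likeness is limited to this count and height, since the Sema3c peaks are 9 and 13 nt wide, abut and share 1 value, whereas those of Eif4g2 are 67 and 88 nt wide and 155 nt apart. For Eif5, with 1 peak and 6.17, the closest was Egln3, a prolyl hydroxylase gene, at 6.18. Egln3 has another host RNA peak, 15457 nt from the start, whereas Eif5 has only 1. For Eif5a, with 1 and 5.85, the closest was Hnrnpa3, a gene of an RNA-binding protein, at 5.85. Hnrnpa3 has 1 host RNA peak in all, 270.5 nt from the start, whereas Eif5a has 2. For Eif4e, with 0 within 1 kb and 6.76, the closest was Slc5a11, a transporter gene, at 6.77. Slc5a11 has 2 host RNA peaks, 14 and 9 nt wide with 1 shared value, whose midpoints lie 5213 and 5228 nt from the start. The single Eif4e peak is 89 nt wide, with its midpoint at 1473 nt.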

How the data were processed

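Tools named in the submitters' processing notes are cutadapt 1.9.1, STAR 2.4.0i and SAMtools 1.4.1, with the genome build mm10. By the settings the authors deposited, each immunoprecipitate was normalised to the input of its replicate and both replicates were joined by the irreproducible discovery rate. The minimum was 3 for the log2 fold and 3 for the −log10 p, per the deposited settings, and mapping to repeats was off. For the peak caller and annotation release, the name is not given in the sources used here. Both the log2 enrichment and −log10 p of each peak are the authors' own deposited values and were used as they stand, to describe and rank peaks within 1 list.

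With Python 3.11.15 and pandas 2.3.3, peaks were matched by gene name and placed in a snoRNA when at least 1 nt overlapped, on the same strand, a small RNA in the authors' annotation column. Distances run from the peak midpoint to the longest overlapping protein-coding transcript. Joining and distance steps were tested on simulated data. RefSeq tables (GRCm38.p6) matched 6 of 6 genes and 70 of 70 list genes. Coordinates are printed counted from 1. The text names the 6 genes, snoRNAs under their peaks, listed translation genes with a peak and 5 genes of like pattern, 1 of which is not reported here. The members and lists were chosen with earlier results of these data known. A planned comparison of replicates could not be run, since no value per replicate was available, and no test was made.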

Additional observations from a re-analysis of the deposited data

How the results depend on the processing

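Each count and median stayed within 1.5 times, or within 1 SD over peaks for the median, of its main value under every setting tried. The 11 sites became 12 when only touching peaks were joined and 9 at up to 200 nt. Of the 12 peaks, 11 remained at a log2 enrichment of at least 4, without the Gm23262 peak of Eif4g2, and 10 at a −log10 p of at least 10. The 9 host RNA peaks were also 9 with RefSeq snoRNA genes and when a peak had to lie at least 50% inside a snoRNA. Their median of 5.85 was 5.90 with the highest peak of each site. Host RNA peaks within 1 kb of the start numbered 7, 9 from the nearest annotated start and 5 from the RefSeq gene start. Listed genes with a peak numbered 11, 10 without snoRNA peaks and 10 when the log2 minimum was raised to 4. No paired analysis was possible because the list gives 1 value per peak for both replicates, and results without 1 replicate could not be computed for the same reason. The unknown depth limits every value, and RNAs with no peak may still be bound.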
